A study of Arabidopsis thaliana with 6 samples.

Results

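The small (40S) subunit of the cytosolic ribosome was examined through the nuclear genes of its proteins in Arabidopsis seedlings. A fixed list of 60 loci that encode 27 of these proteins was matched to the array, and the 35 loci with a probe set that names 1 gene were kept, out of 13333 loci named in this way. They stand for 19 proteins, 11 of them with 2 or 3 measured genes and 8 with 1. Each of the 35 had a single such probe set, so no choice between probe sets was needed. The other 25 loci have no probe set naming 1 gene in the tables used here and were not analysed. With them all genes of Sa, S5, S6, S15a, S16, S18, S23 and S27 were left out.

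Wild type plants and plants carrying an sdg2 mutation, both of the Columbia (Col-0) accession, were compared with 3 arrays each. SDG2 is an enzyme that writes the H3K4 trimethyl mark on histone H3 at active genes. Total RNA came from seedlings aged 10 days, raised at 22 °C in constant light on plates of a plant growth medium, and the labels name no treatment. The titles call the samples biological replicates, but nothing in the labels tells how they were raised apart. The p-values thus set the difference between genotypes only against the spread among these samples, which may in part be technical. The labels name neither the allele nor the number of lines. SDG2 itself has no probe set naming it here, so the genotype could not be checked on the arrays. In seedlings taken as a whole fewer cells of a type and less RNA per cell cannot be told apart.

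The 40S subunit carries the messenger RNA and reads its codons. It has a head and a body, the body with a side lobe called the platform, and is built on the 18S ribosomal RNA in the nucleolus before it is completed in the cytoplasm. In Arabidopsis each of its proteins comes from a small family of nuclear genes, the paralogues, which make nearly the same protein. Plants lacking such a gene often have narrow, pointed first leaves. Dividing tissue makes the most ribosomes, and ribosomal protein messenger RNAs are among the most abundant of a seedling.

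Of the 35 genes, 23 were lower in sdg2, 1 was higher and 11 did not pass (limma, sdg2 minus wild type, Benjamini-Hochberg adjusted p below 0.05 over all 22746 probe sets tested). Among all probe sets 17.6% were called lower, 19% higher and so 36.6% either way. Among the 13669 whose mean value lies within the range of the members' means, 4.45 to 13.58, 27.1% were lower and 29.1% higher. The lower end of that range is set by the dimmest member, AT5G59240. The 40S genes are bright on the array, and bright probe sets are called more often. Among all probe sets with a mean over the 6 arrays of 10 or above on the log2 scale, 36.8% were lower, against 20 of the 28 members at that level. Below 10, 15.9% of all probe sets were lower, against 3 of 7 members, and the 1 member that rose is among these 7. Brightness differs between probe sets for reasons beyond the amount of RNA, so this split only describes the probe sets.

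Changes were small and mostly of 1 sign. The median change of the 35 was -0.34 on the log2 scale, which is 78.9% of the wild type level, beside a median of -0.01 over all probe sets and of 0.00 over the probe sets at 10 or above. In 32 of 35 the change was below 0. The changes ran from -1.03 to 0.27, and a single gene reached 2-fold. The arrays of the 2 genotypes did not overlap in 29 genes, 28 of them lower and 1 higher in sdg2. Of all probe sets 48.3% did not overlap and 24.1% did so with sdg2 lower, or 32.6% within the members' range of mean values. That share was not computed for probe sets at 10 or above, where most members lie. The authors' normalization gives the arrays similar but not identical distributions of values. These are thus shifts relative to the other transcripts and no measure of total ribosomal RNA or protein. Quantile-normalizing the values again took the change of the bright gene AT4G39200 from -0.41 to -0.31 and that of AT5G15200 from -0.08 to 0.02. The change of the dimmer AT5G15520 went from -0.80 to -0.78 and that of AT4G34555 from 0.27 to 0.26.

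**Figure D1:**
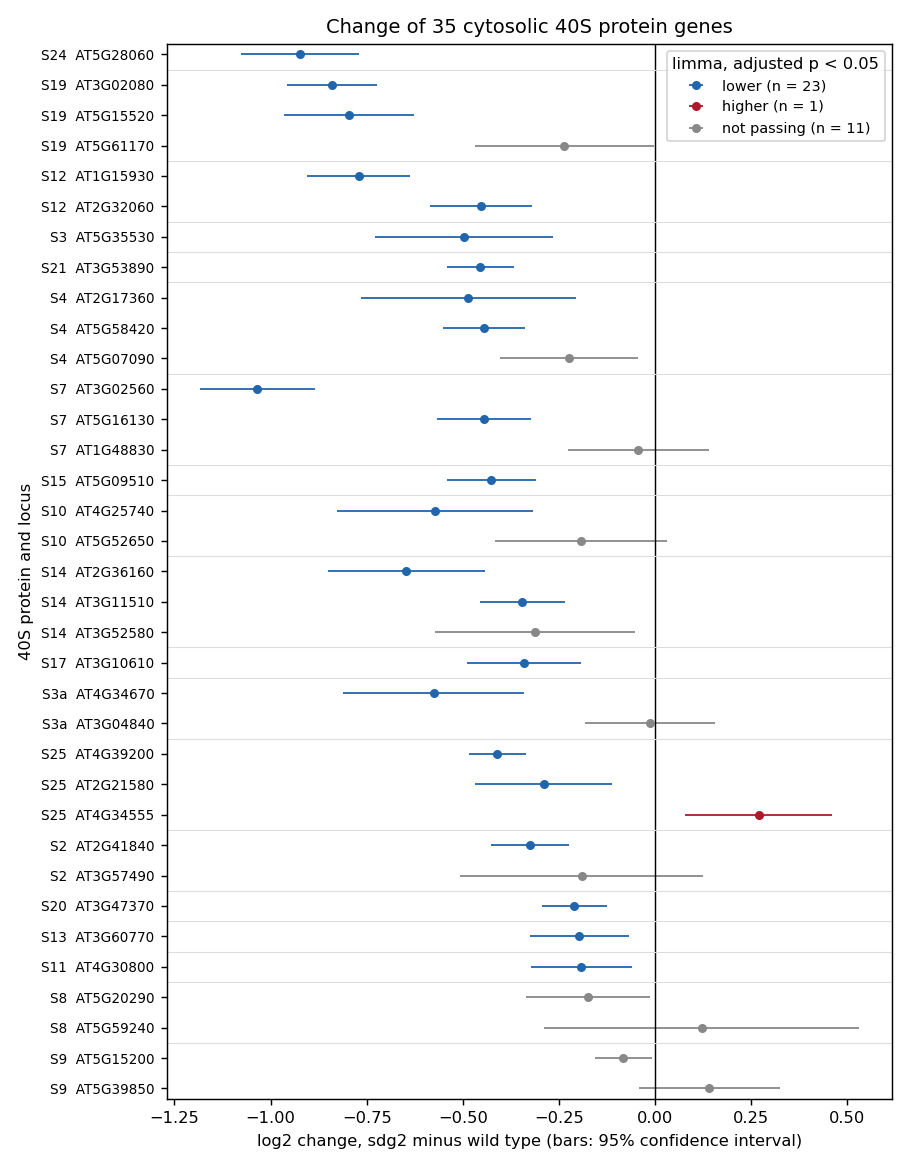
Log2 change of each of the 35 measured 40S protein genes (sdg2 minus wild type, 3 arrays per genotype) on the horizontal axis, with 95% confidence intervals as bars, and genes grouped by protein on the vertical axis. Blue marks the 23 genes called lower, red the 1 called higher and grey the 11 that did not pass; most points lie left of 0, from -1.03 to 0.27.

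The shift was shared by the 3 mutant arrays. Set against each gene's wild type mean, the median over the 35 genes was -0.38 in sdg2 replicate 1, -0.34 in replicate 2 and -0.33 in replicate 3. The wild type arrays had medians of 0.00, -0.01 and 0.00. On each of the mutant arrays 30 of the 35 genes lay below every wild type array. The share of all probe sets that did so on a single mutant array was not computed. For all 3 mutant arrays together it was 24.1%, where 28 of the 35 genes did so. The mutant arrays were thus close to each other while the genes ranged widely.

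**Figure D2:**
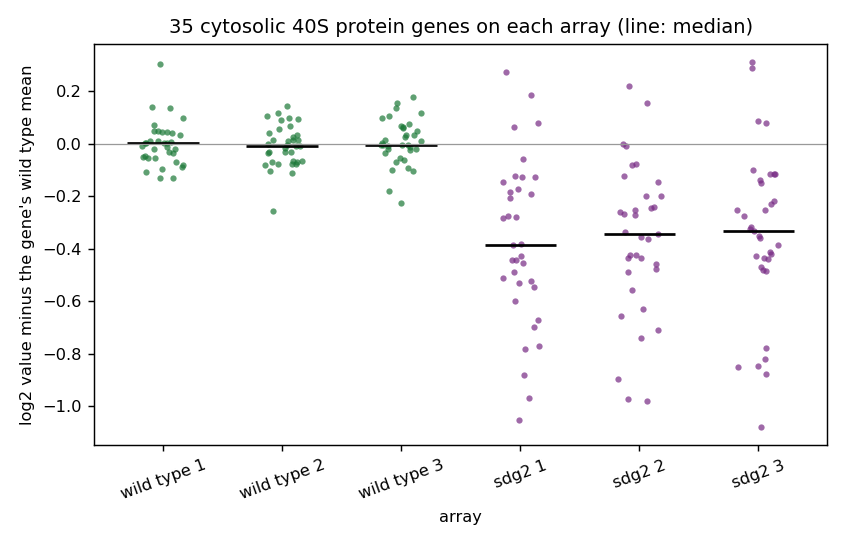
Log2 value of each of the 35 genes minus that gene's wild type mean (vertical axis) on each of the 6 arrays (horizontal axis), with the median of the genes as a line. The medians lie at -0.38, -0.34 and -0.33 on the sdg2 arrays and within 0.01 of 0 on the wild type arrays.

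The 4 largest falls were in genes of S7, S24 and S19 (eS7, eS24 and eS19 in the universal naming), proteins known from human cells for their part in the processing of the 18S ribosomal RNA precursor. The S7 gene AT3G02560 was measured at 12.55, 12.71 and 12.70 in wild type and at 11.60, 11.68 and 11.57 in sdg2. It fell by 1.03 ± 0.06 (SE, n = 3 per genotype) to 48.8% of the wild type level (limma adjusted p = 0.000182), the largest fall of the 35. The mutant arrays lie closely together, well under the lowest wild type array.

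S24 has 1 gene on the list, AT5G28060. It gave 12.47, 12.40 and 12.53 in wild type and 11.50, 11.49 and 11.65 in sdg2. It fell by 0.92 ± 0.06, or to 52.7% of wild type (limma adjusted p = 0.000275), with no overlap between the genotypes. The S19 gene AT3G02080 gave 13.19, 13.16 and 13.08 against 12.37, 12.25 and 12.30, and fell by 0.84 ± 0.05, or to 55.8% of wild type (limma adjusted p = 0.000161). Its paralogue AT5G15520 gave 9.32, 9.37 and 9.33 against 8.46, 8.69 and 8.49, and fell by 0.80 ± 0.07 (limma adjusted p = 0.000633). On both S19 genes every mutant array lies well below every wild type array.

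The other genes of S7 and S19 fell less or did not pass. The S7 gene AT5G16130 gave 12.71, 12.60 and 12.68 in wild type and 12.15, 12.23 and 12.28 in sdg2, and fell by 0.44 ± 0.05 (limma adjusted p = 0.0015). The S7 gene AT1G48830 gave 11.94, 11.90 and 12.08 against 12.04, 11.89 and 11.86. Its genotypes overlap, and its change of -0.04, with a 95% confidence interval from -0.23 to 0.14, did not pass. The S19 gene AT5G61170 gave 11.86, 11.89 and 11.98 against 11.76, 11.48 and 11.77. Its arrays did not overlap, but the change of -0.24 ± 0.09 did not pass (limma adjusted p = 0.11).

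The S25 family held genes that went opposite ways. S25 (eS25) sits in the head, near the site where transfer RNA leaves, and is known from yeast and human cells for initiation on some viral messenger RNAs. AT4G39200 gave 13.66, 13.65 and 13.65 in wild type and 13.22, 13.29 and 13.21 in sdg2, and fell by 0.41 ± 0.03 (limma adjusted p = 0.000355). AT2G21580 gave 11.40, 11.22 and 11.15 against 10.975, 11.0045 and 10.925, and fell by 0.29 ± 0.07 (limma adjusted p = 0.0258). Leaving out wild type replicate 2 or any 1 of the sdg2 arrays ended that call, with adjusted p between 0.0585 and 0.0822, and so did unmoderated statistics (0.0583).

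AT4G34555 was the only 40S gene that rose. It gave 7.58, 7.60 and 7.82 in wild type and 7.94, 7.89 and 7.98 in sdg2, all mutant arrays above all wild type arrays. The rise was 0.27 ± 0.08, or 1.21-fold (limma adjusted p = 0.0429). It was not called with median centring (adjusted p = 0.0722), with trend and robust moderation (0.0514), with unmoderated statistics (0.0868), when the tested probe sets were limited to those naming 1 gene (0.0506) or without any 1 array other than wild type replicate 3 (0.0826 to 0.123).

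**Figure D3:**
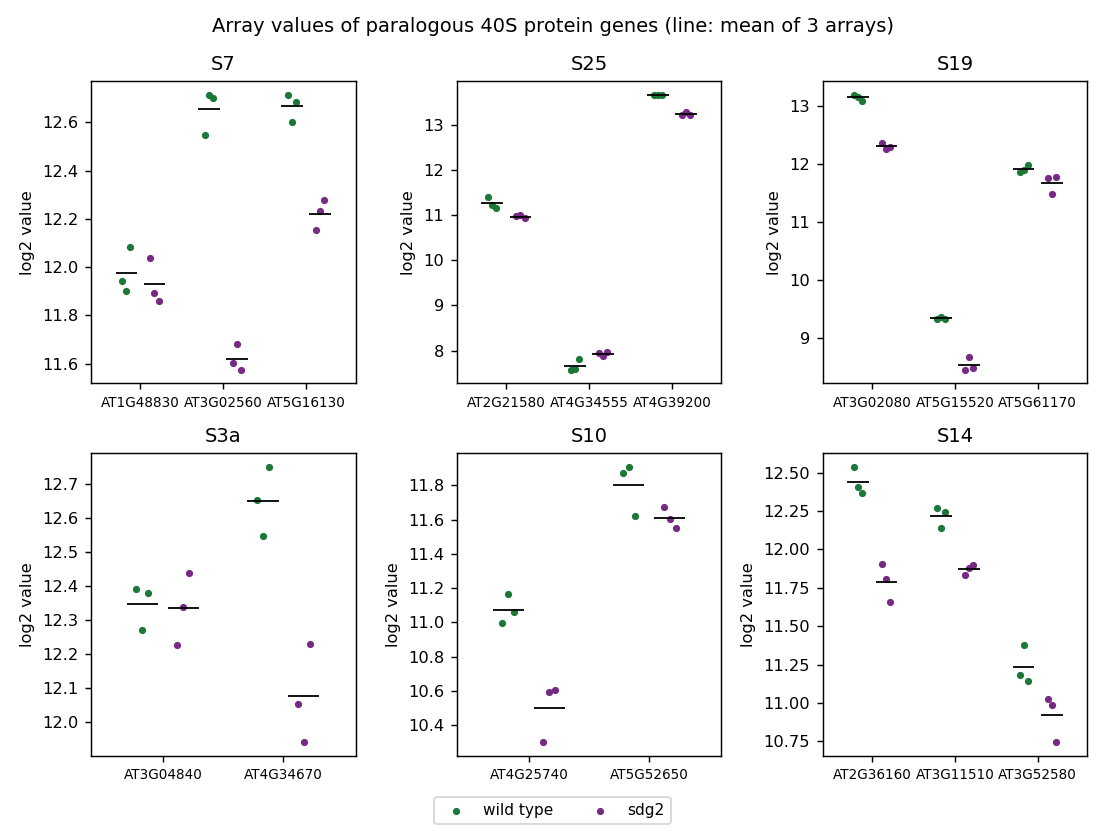
Log2 values on each array for the genes of S7, S25, S19, S3a, S10 and S14, the 6 proteins with the largest differences between paralogues that differ in call; green points are wild type, purple points sdg2, lines the means of 3 arrays, and each panel has its own vertical scale. Within S7 the gene AT3G02560 drops from a mean of 12.65 to 11.62 while AT1G48830 stays between 11.86 and 12.08 on all 6 arrays, and within S25 AT4G34555 is the gene that goes up.

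The genes of S3a were split between a fall and no call. S3a (eS1) lies on the platform beside the exit of the messenger RNA. Its gene AT4G34670 gave 12.65, 12.55 and 12.75 in wild type and 12.05, 11.94 and 12.23 in sdg2, and fell by 0.58 ± 0.09 (limma adjusted p = 0.0062). Its other gene, AT3G04840, gave 12.39, 12.27 and 12.38 against 12.23, 12.34 and 12.44. The genotypes overlap there, and the change of -0.01 had a 95% confidence interval from -0.18 to 0.16. With quantile normalization the change of AT3G04840 was 0.04 and that of the S7 gene AT1G48830 was 0.00, neither passing.

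S14 (uS11), also of the platform, has 3 measured genes. AT2G36160 gave 12.54, 12.41 and 12.37 in wild type and 11.90, 11.81 and 11.66 in sdg2, and fell by 0.65 ± 0.08 (limma adjusted p = 0.00249). AT3G11510 gave 12.27, 12.14 and 12.24 against 11.83, 11.88 and 11.90, a fall of 0.35 ± 0.04 (limma adjusted p = 0.00259). AT3G52580 gave 11.18, 11.38 and 11.14 against 11.03, 10.99 and 10.75, and its change of -0.31 ± 0.10 did not pass (limma adjusted p = 0.069) although the genotypes did not overlap. It passed in 4 of 14 alternative settings. The last 2 changes are close in size, and the third gene is the one with the wider spread.

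In the head, S10 and S12 are proteins of its beak, a projection next to the path of the messenger RNA. The S12 (eS12) gene AT1G15930 gave 12.96, 12.96 and 12.93 in wild type and 12.25, 12.21 and 12.07 in sdg2, and fell by 0.77 ± 0.05, to 58.6% of wild type (limma adjusted p = 0.000325). Its paralogue AT2G32060 fell by 0.45 ± 0.05, from 11.28 ± 0.02 (SD, n = 3) to 10.83 ± 0.09. In the main fit S12 was the 1 protein with several measured genes in which all of them were called lower. All measured genes of S4 and of S14 were also called lower in some alternatives. These were a block for replicate number, median centring, a filter on dim probe sets, and trend and robust moderation.

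The S10 (eS10) gene AT4G25740 gave 10.99, 11.17 and 11.06 in wild type and 10.30, 10.60 and 10.61 in sdg2, and fell by 0.57 ± 0.10 (limma adjusted p = 0.0084). AT5G52650, of the same protein, gave 11.87, 11.91 and 11.62 against 11.68, 11.60 and 11.55. Its lowest wild type array lies inside the mutant range, and the change of -0.19 ± 0.09 did not pass (limma adjusted p = 0.166). Without that array, wild type replicate 3, it passed (adjusted p = 0.0164).

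Head proteins with 1 measured gene all fell. S3 (uS3) lines the entry of the messenger RNA channel, and its gene AT5G35530 fell by 0.50 ± 0.09, from 12.96 ± 0.16 (SD, n = 3) to 12.46 ± 0.08. S15 (uS19), which reaches towards the decoding site, is represented by AT5G09510, which fell by 0.43 ± 0.05 from 10.15 ± 0.03. The S17 (eS17) gene AT3G10610 fell by 0.34 ± 0.06, and the S20 (uS10) gene AT3G47370 by 0.21 ± 0.03. The fall of S20 was small but its spread was small as well, with an SD of 0.04 in each genotype.

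Genes of body proteins ranged from falls to no call. S4 (eS4) has 3 measured genes, of which AT2G17360 fell by 0.49 ± 0.11 and AT5G58420 by 0.45 ± 0.04. The third, AT5G07090, changed by -0.22 ± 0.07 without passing (limma adjusted p = 0.0607). It passed in 5 of 14 alternative settings. The call of AT2G17360 was lost when wild type replicate 2, wild type replicate 3 or sdg2 replicate 2 was left out, at adjusted p of 0.0548 to 0.0592, and with unmoderated statistics (0.0528). S21 (eS21), a neighbour of the Sa protein, has 1 gene on the list, AT3G53890. It fell by 0.45 ± 0.03 from 12.43 ± 0.05 to 11.98 ± 0.03.

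S2 (uS5) lies at the messenger RNA entry. Its gene AT2G41840 fell by 0.33 ± 0.04, and AT3G57490 had a change of -0.19 ± 0.12 with overlapping genotypes (limma adjusted p = 0.324). This outcome hung on 1 array of AT3G57490: without wild type replicate 2, at 8.91 beside 9.30 and 9.28, it passed (adjusted p = 0.0218). The S13 (uS15) gene AT3G60770 and the S11 (uS17) gene AT4G30800 fell by 0.20 ± 0.05 and 0.19 ± 0.05. Both are borderline calls. That of AT3G60770 was lost in 8 of 14 alternative settings and that of AT4G30800 in 8, with adjusted p no higher than 0.101.

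S8 and S9 were the proteins with no gene called. S8 (eS8) binds the 18S ribosomal RNA in the body. Its bright gene AT5G20290 went from 13.67 ± 0.10 to 13.49 ± 0.07 without overlap, which gives -0.17 ± 0.06 and no call (limma adjusted p = 0.0944). It passed in 3 of 14 alternative settings, but with quantile normalization its change was -0.08 (limma adjusted p = 0.402). AT5G59240, the other S8 gene, had the dimmest probe set of the 35 at 4.39 ± 0.27 and 4.51 ± 0.15, and its change was 0.12 ± 0.16.

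S9 (uS4) is known from yeast for its part in the accuracy of decoding. AT5G15200 went from 13.42 ± 0.03 to 13.33 ± 0.03 without overlap, and the change of -0.08 ± 0.03 did not pass (limma adjusted p = 0.0826). Its change was 0.02 with quantile normalization, and with median centring it was -0.12 and passed (adjusted p = 0.0339). Without any 1 array it ran from -0.10 to -0.07 and did not pass. AT5G39850 went from 8.46 ± 0.12 to 8.60 ± 0.06, a change of 0.14 ± 0.07 with overlapping genotypes. The 95% confidence intervals of the S9 genes ran from -0.16 to -0.01 and from -0.04 to 0.32, which leaves out a fall as large as the median of the 35.

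By place in the subunit, 11 of 14 genes of head proteins fell and 1 rose, with a median change of -0.42. Of 21 genes of body and platform proteins 12 fell, with a median of -0.31. The ranges overlap widely, from -0.84 to 0.27 in the head and from -1.03 to 0.14 in the body and platform, and the difference was not tested. By chromosome, 1 of 2 genes fell on chromosome 1, 5 of 5 on chromosome 2, 7 of 10 on chromosome 3, 4 of 5 on chromosome 4, where the other rose, and 6 of 13 on chromosome 5. Over all probe sets 17.6% were lower, or 27.1% within the members' range and 36.8% at a mean of 10 or above. Differences between these small groups of genes were not tested. Across the 35 genes the change correlated with the wild type value of the probe set at Pearson's r = -0.48 and Spearman's rho = -0.37, a description over genes that share the same 6 arrays. The correlation was not recomputed after quantile normalization, which made the falls of several bright genes smaller.

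The comparison of paralogues asks whether genes for the same protein changed by the same amount. For each of the 21 pairs the difference between both log2 values was taken on every array and compared between the genotypes. In 14 pairs these differences did not overlap between the genotypes (exact permutation test, two-sided p = 0.1 in each, the smallest that 3 arrays against 3 allow, so no pair could reach 0.05). Single probe sets do not overlap in 48.3% of all cases, a share for values and not for differences of values. The 95% confidence interval of the difference left out 0 in 13 of the 21, with no adjustment for their number.

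The widest gap was inside S7. AT1G48830 exceeded AT3G02560 in change by 0.99 ± 0.09 (SE), with a 95% confidence interval from 0.73 to 1.25, which is a 1.99-fold shift of the balance between both transcripts. AT5G16130 lay between them, with a gap of 0.59 to AT3G02560 and of 0.40 to AT1G48830. In each pair of the 3 S7 genes the array differences did not overlap between the genotypes. The 95% confidence interval, not adjusted for the number of pairs, left out 0 in each. In S25 AT4G34555 exceeded AT4G39200 by 0.68 ± 0.10 and AT2G21580 by 0.56 ± 0.15. In S19 AT5G61170 exceeded AT3G02080 by 0.60 ± 0.10 and AT5G15520 by 0.56 ± 0.17, and in S3a AT3G04840 exceeded AT4G34670 by 0.56 ± 0.08.

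Smaller gaps without overlap were found in S10, S12, S14, S9 and S4. AT5G52650 exceeded AT4G25740 by 0.38 in S10, where the interval from -0.07 to 0.83 includes 0. AT2G32060 exceeded AT1G15930 by 0.32 in S12. In S14 AT2G36160 fell further than AT3G52580 by 0.33 and than AT3G11510 by 0.30. AT5G39850 exceeded AT5G15200 by 0.22 in S9, and AT5G07090 exceeded AT5G58420 by 0.22 in S4.

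In the other 7 pairs the genotypes overlapped. The S19 genes AT3G02080 and AT5G15520 differed in change by -0.04, with an interval from -0.34 to 0.25. The S14 genes AT3G11510 and AT3G52580 differed by -0.03 (-0.46 to 0.39), and the S4 genes AT2G17360 and AT5G58420 by -0.04 (-0.34 to 0.26). The S25 genes AT2G21580 and AT4G39200 differed by 0.12 (-0.07 to 0.31). The remaining pairs, of S2, S4 and S8, had intervals that included 0 as well. Apart from the S25 pair, each of the 7 intervals reaches past the median gap of the 21 pairs, 0.32, on at least 1 side, so the data do not show that these genes changed alike.

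**Figure D4:**
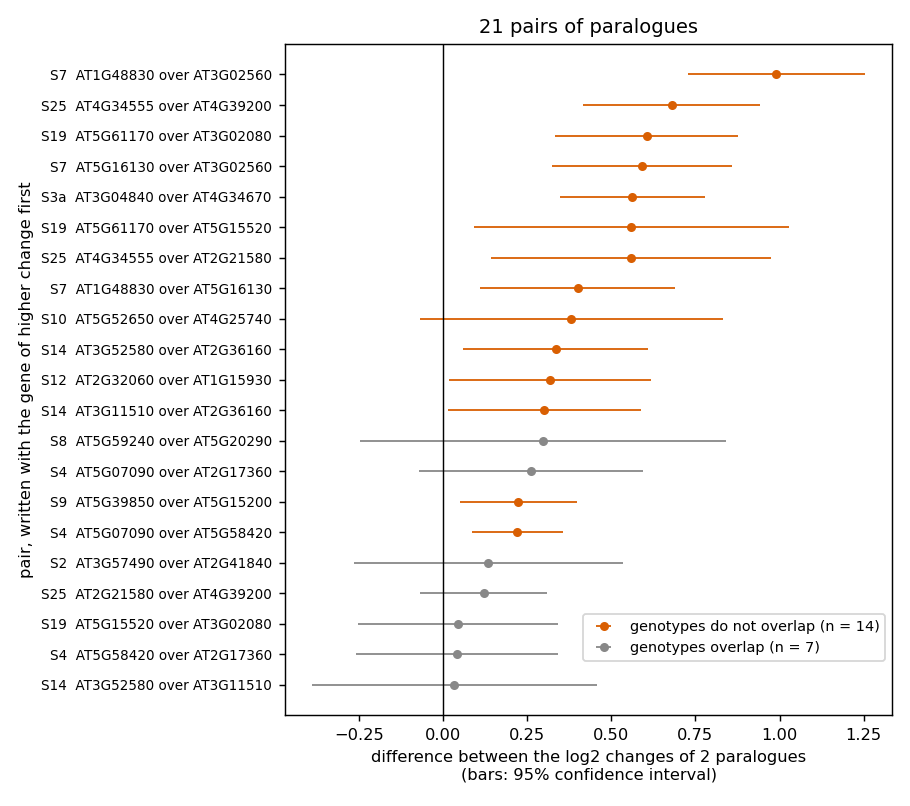
Difference between the log2 changes of 2 genes of the same protein (horizontal axis) with its 95% confidence interval, for the 21 pairs, each written with the gene of higher change first. Orange marks the 14 pairs whose array differences did not overlap between the genotypes and grey the 7 that did; the largest is 0.99 in S7.

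Paralogues were set against genes of different proteins. The median absolute difference in change was 0.32 over the 21 pairs and 0.28 over the 574 pairs of members that encode different proteins. Pairs share genes, so these medians are descriptions. Of the 11 proteins with several measured genes, 8 had genes that differed in call. How often members that encode different proteins differ in call was not computed. A difference in call does not by itself show a difference in change. For pairs that differed in call, the confidence interval of the difference included 0 in S2 and S10. It left out 0 in S3a, S7, S19 and S25, and the pairs were divided in S4 and S14. Whether probe sets of similar paralogues read each other's transcripts was not tested. All 35 probe sets carry the plain suffix that Affymetrix gives to sets without known shared probes.

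The same comparison was read in other genes of the translation machinery. Of 118 listed genes for proteins of the large (60S) subunit 70 were measured, and 45 fell, 2 rose and 23 did not pass, with a median change of -0.32. The share that fell was 64.3%, beside 65.7% for the 40S genes. Among all probe sets 17.6% were lower and 19% higher. Within the 40S members' range of mean values 27.1% were lower, and at a mean of 10 or above 36.8%. The 60S list holds 8 genes with a mean over the 6 arrays below 5, none called, and the 40S list 1. Without them 72.6% of 62 60S genes and 67.6% of 34 40S genes fell. The difference between the lists was not tested. The largest fall of the 60S list was that of AT1G15250, -0.96 ± 0.09, and the larger rise that of AT5G02870, 0.53 ± 0.06. AT3G09630, named after its value was seen, is the other gene that rose, by 0.35 ± 0.06.

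Of 41 listed genes of ribosome biogenesis 17 were measured, and 9 fell, 1 rose and 7 did not pass, with a median of -0.33. The share that fell was 52.9%, beside 17.6% of all probe sets and 27.1% within the members' range of mean values. DIM1A, a dimethylase of 18S ribosomal RNA and so an enzyme of 40S assembly, went from 9.41 ± 0.07 to 7.94 ± 0.15, a 2.77-fold fall (limma adjusted p = 0.000204) larger than that of any 40S protein gene. AT3G03920 fell by 0.87 ± 0.07, and AT3G15460 rose by 0.67 ± 0.08. Of 58 listed translation factor genes 15 were measured, and 4 fell, 3 rose and 8 did not pass, with a median of -0.10. AT3G02200 fell by 0.79 ± 0.10 and AT4G27130 by 0.73 ± 0.05, while EIF4A-2, an RNA helicase of initiation, rose by 0.44 ± 0.06 and AT4G20980 by 0.35 ± 0.06. The other calls, named after their values were seen, were falls of AT5G19510 and AT1G36730 and a rise of AT2G40290. The translation factor counts, 26.7% lower and 20% higher, lie near the background shares of 27.1% and 29.1% among probe sets of the members' range, and the falls numbered 3 to 6 over the alternatives.

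Of the TOR kinase pathway, through which S6 is phosphorylated, 2 of 8 listed genes were measured. Both encode the TOR partner RAPTOR and rose, RAPTOR1 from 5.45 to 5.79 and RAPTOR2 from 4.25 to 4.94 (limma adjusted p = 0.0167 and 0.042). Among all probe sets 19% were higher, or 29.1% within the members' range of mean values. RAPTOR2 is dim, with a mean over the 6 arrays below 5, and 2 genes do not describe the pathway. None of the 3 RACK1 genes, of the 3 listed regulators of ribosomal protein genes or of the 19 genes of dividing cells has a probe set naming 1 gene, so the share of dividing tissue could not be read.

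**Figure D5:**
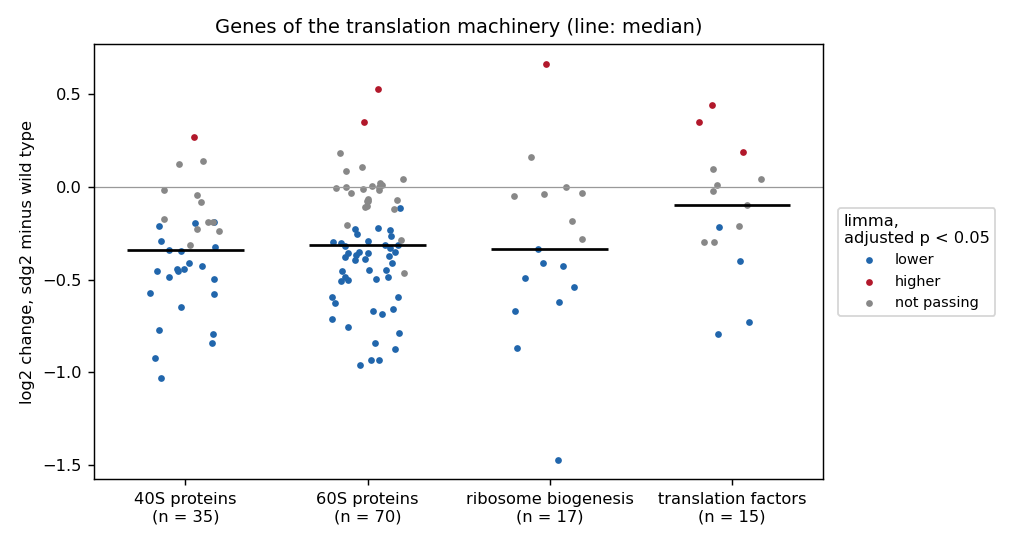
Log2 change (sdg2 minus wild type, vertical axis) of each measured gene of the 40S proteins, 60S proteins, ribosome biogenesis and translation factors, with the median of each list as a line; blue marks genes called lower, red higher and grey not passing. The medians are -0.34, -0.32, -0.33 and -0.10.

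The arrays had medians of 5.90 to 5.96 and correlated at 0.997 to 0.998 within a genotype and at 0.970 to 0.971 between genotypes. Of 7 listed leaf markers 3 were measured, and these were bright. RCA lay at 14.19 in wild type and 14.28 in sdg2 and LHCB4.1 at 14.03 and 14.11, neither called, and LHCB4.2 fell by 0.77. Of 3 root markers, both PYK10 and EXPA18 were lower by the same amount, -0.33, and EXPA7, at -0.75 ± 0.31, was not called. Among all probe sets 17.6% were lower, or 27.1% within the 40S members' range of mean values. The part of tissue make-up in the 40S shift was not tested. The 1 measured pollen gene, AT3G07820, lay at 2.17 and 2.15, the level of unexpressed probe sets. RNA integrity was read from control probe sets for actin, GAPDH and ubiquitin. Their signal at the 3' end exceeded that at the 5' end by 1.39 ± 0.02 (SD, n = 3) on the log2 scale in wild type and 1.44 ± 0.06 in sdg2 (exact permutation test, two-sided p = 0.3), and its part in the result was not tested.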

How the data were processed

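RNA of 3 wild type and 3 sdg2 samples was measured on 1-colour Affymetrix arrays. The deposited table holds log2 values, made by the authors with GCRMA per the submitters' processing notes. GCRMA adjusts background, quantile-normalizes the arrays and summarizes probes; which version and options they used is not given in the sources used here. The number of arrays limits the precision.

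Of 22810 probe sets 64 are controls, and 22746 were tested. The platform annotation pairs 13513 with 1 gene and 503 with several, and the 8730 it does not list stay unnamed. Loci came from the NCBI gene table of TAIR10.1. That table gives the measured members by locus alone, so which protein each encodes, and its place in the subunit, follow the usual Arabidopsis nomenclature and textbook structure. No sequence or coordinate was used.

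Genotypes were compared with limma 3.58.1 (lmFit, eBayes) in R 4.3.3, adjusted over all 22746 probe sets and called below 0.05. Errors of changes are moderated SEs; those of paralogue differences use the pooled variance of 3 and 3 arrays. The fit was tested on simulated data. The tissue markers and gene lists were leaf, root, dividing cells, seed and pollen, 60S proteins, translation factors, ribosome biogenesis, TOR, RACK1 and regulators. Every member is named; array values were given for the 8 largest falls, every rise and the 6 proteins with the widest gaps between paralogues differing in call or sign. Of each other list up to 2 genes each way were named (1 for the 60S). Members and lists were chosen with earlier results of these data known. As alternatives the arrays were quantile-normalized again or median-centred, a replicate block or other moderation was used, dim or unnamed probe sets were dropped, probe sets of a locus were averaged and each array was left out. Counts of the other lists under these were added after seeing the data. Figures were drawn with matplotlib 3.10.9.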

Additional observations from a re-analysis of the deposited data

How the results depend on the processing

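No gene called lower or higher changed direction in the 14 alternatives. The count of falls was 22 with quantile normalization, 27 with median centring, 19 with unmoderated statistics and 20 to 22 with 1 array left out. The median was -0.31 with quantile normalization, -0.38 with median centring and -0.33 to -0.36 with 1 array left out. The 1 rise became 0 with median centring, with trend and robust moderation, with unmoderated statistics and with only probe sets naming 1 gene, and ranged from 0 to 1 with 1 array left out; the cause was not tested. Of the 24 calls, 19 held in every alternative, and 5 were lost in some; 6 of the 11 other genes passed in at least 1. Pairs of paralogues without overlap numbered 13 with quantile normalization and 14 to 16 with 1 array left out. Replicate numbers are shared by the genotypes, but deviations of same-numbered arrays correlated at -0.01, 0.07 and 0.06, so the numbers were not taken as pairs; with the replicate block 26 members fell, 1 rose and 16 pairs moved the same way in all 3 numbers. The filter kept probe sets at 5 or above on at least 3 arrays, and left 34 of the 35. Averaging the probe sets of a locus changed no value, since each member has 1. Between 39 and 46 genes of the 60S list fell over the alternatives, beside 45. Of the translation factors 4 fell, with 6 after median centring or the dim filter and 3 with the replicate block. The dimmest 40S gene, AT5G59240 at 4.39, lies closest to the level of unexpressed probe sets, 2.27 to 2.30.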
